A study of Rattus norvegicus with 156 samples.

Results

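The genes described here encode 7 neuronal calcium-binding proteins: parvalbumin (Pvalb), calbindin (Calb1), calretinin (Calb2), tescalcin (Tesc), neurocalcin delta (Ncald), hippocalcin (Hpca) and visinin-like 1 (Vsnl1). They were taken as every probe set annotated to one of these symbols on the rat U34 A, B and C arrays, which gave 9 of 26379 probe sets and 7 of 10969 gene symbols. Calb1 and Vsnl1 had 2 probe sets each, and the brighter one on average stands for the gene. The signal exceeded the 40th percentile of its own array in all 52 RNA pools for Calb2, Ncald and Hpca, in 51 for Pvalb, in 48 for Vsnl1, in 44 for Tesc and in 34 for Calb1.

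The rats modelled neuropathic pain by tying the L5 and L6 spinal nerves on the ipsilateral side, which leaves the L4 nerve intact. The ligated groups were SNL (ligation and saline) and SNL+GPN (ligation and gabapentin, 100 mg per kg, injected daily on 7 days). The unligated groups were Naive (no surgery, saline), Naive+GPN (no surgery, gabapentin) and Sham (nerves exposed, saline). Tissues were taken 19 to 21 days after surgery from the L4, L5 and L6 dorsal root ganglia, the sciatic nerve at mid thigh and the spinal cord of each side, and from whole brain. SNL rats entered the study only if withdrawal thresholds of the ipsilateral paw were reduced in tests on days 12 to 14. No strain or age was given in the labels. Each treatment and tissue was 1 RNA pool of 4 to 6 rats, so ligated pools were set against unligated pools, 2 against 3 in most tissues. The pools of a group differ in treatment, and p-values measure the spread between these pools.

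All 7 proteins bind calcium through EF-hand motifs. Parvalbumin, calbindin and calretinin are mainly cytosolic buffers that shape the size and length of calcium transients, while neurocalcin delta, hippocalcin and visinin-like 1 are neuronal calcium sensors that move to membranes through a myristoyl group exposed on calcium binding. Tescalcin is related to the calcineurin B homologous proteins and binds a sodium-proton exchanger. In sensory ganglia parvalbumin is known as a marker of large proprioceptive neurons, and outside the nervous system it is abundant in fast skeletal muscle fibres.

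RefSeq promoters (assembly GRCr8, 250 bases before to 50 bases after the annotated start) were at hand for 4 of the 7 genes. They are shown so that a reader can set the start regions side by side. A link between these sequences and the changes after ligation was not tested. Each is written 5′ to 3′ on the strand of the gene, and capitals mark the GC box.
Tesc, chr12:44216491-44216790, minus strand: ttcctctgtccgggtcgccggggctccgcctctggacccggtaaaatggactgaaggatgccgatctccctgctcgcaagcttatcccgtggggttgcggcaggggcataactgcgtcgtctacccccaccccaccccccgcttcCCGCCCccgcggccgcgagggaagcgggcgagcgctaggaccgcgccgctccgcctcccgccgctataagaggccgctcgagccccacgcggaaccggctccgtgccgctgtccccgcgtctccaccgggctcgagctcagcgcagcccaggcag
Vsnl1, chr6:39878507-39878806, minus strand: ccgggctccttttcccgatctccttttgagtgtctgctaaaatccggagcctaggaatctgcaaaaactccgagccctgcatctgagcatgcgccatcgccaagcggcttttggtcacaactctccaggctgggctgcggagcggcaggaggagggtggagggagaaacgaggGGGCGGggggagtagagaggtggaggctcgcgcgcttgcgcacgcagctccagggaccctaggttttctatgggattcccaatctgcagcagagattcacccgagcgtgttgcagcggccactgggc
Pvalb, chr7:111666240-111666539, minus strand: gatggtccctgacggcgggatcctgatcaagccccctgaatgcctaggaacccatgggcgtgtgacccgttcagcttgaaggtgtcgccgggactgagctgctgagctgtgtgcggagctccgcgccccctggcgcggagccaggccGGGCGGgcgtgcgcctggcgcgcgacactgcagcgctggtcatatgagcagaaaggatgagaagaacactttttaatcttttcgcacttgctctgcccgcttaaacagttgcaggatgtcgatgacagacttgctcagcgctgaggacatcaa
Hpca, chr5:146748309-146748608, minus strand: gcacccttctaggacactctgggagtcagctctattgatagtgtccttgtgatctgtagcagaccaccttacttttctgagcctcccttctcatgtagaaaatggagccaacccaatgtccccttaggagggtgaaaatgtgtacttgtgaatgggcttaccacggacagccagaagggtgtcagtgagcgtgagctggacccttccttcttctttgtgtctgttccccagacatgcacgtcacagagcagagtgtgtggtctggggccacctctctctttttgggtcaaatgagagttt
Both strands were searched for the TATA box (TATAAA), the cyclic AMP element (TGACGTCA), the GC box (GGGCGG) and the AP-1 element (TGANTCA). A GC box was found once in Tesc, Vsnl1 and Pvalb, with its first base at -105, -77 and -103 from the start, and 33.1% of 33469 rat promoters of this length held one. None of the other 3 motifs was found in these 4 windows. Across all promoters, 14.2% held the TATA box, 1.83% the cyclic AMP element and 7.33% the AP-1 element. The GC content was 72% for Tesc, 61.3% for Vsnl1, 60.7% for Pvalb and 50.7% for Hpca. These matches describe letters in the window and say nothing of binding.

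Before ligation is considered, the 7 genes differed in where their signal was high. The levels in this and the next 3 paragraphs are on a scale shared by all 52 pools, as the mean ± SD of the 3 unligated treatments on the ipsilateral side (n = 3), with the 3 ganglia averaged within each treatment. Tissue differences were tested with limma in 18 unligated pools, with Benjamini-Hochberg adjustment over all 19455 probe sets. By their brighter probe sets, all 7 genes differed between ganglia and spinal cord and all 7 between nerve and ganglia. In these comparisons 32.1% and 47% of all probe sets were called. Between brain and cord, 4 of 7 were called, all higher in brain, against 15.3% of all probe sets. The 3′ to 5′ ratio of GAPDH, a sign of RNA integrity, was 7.38 in Naive, 3.80 in Sham and 1.603 in Naive+GPN ipsilateral nerves. In unligated ipsilateral ganglia it was 1.13 to 1.49. Its part in the levels and differences of the nerve was not tested.

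**Figure D1:**
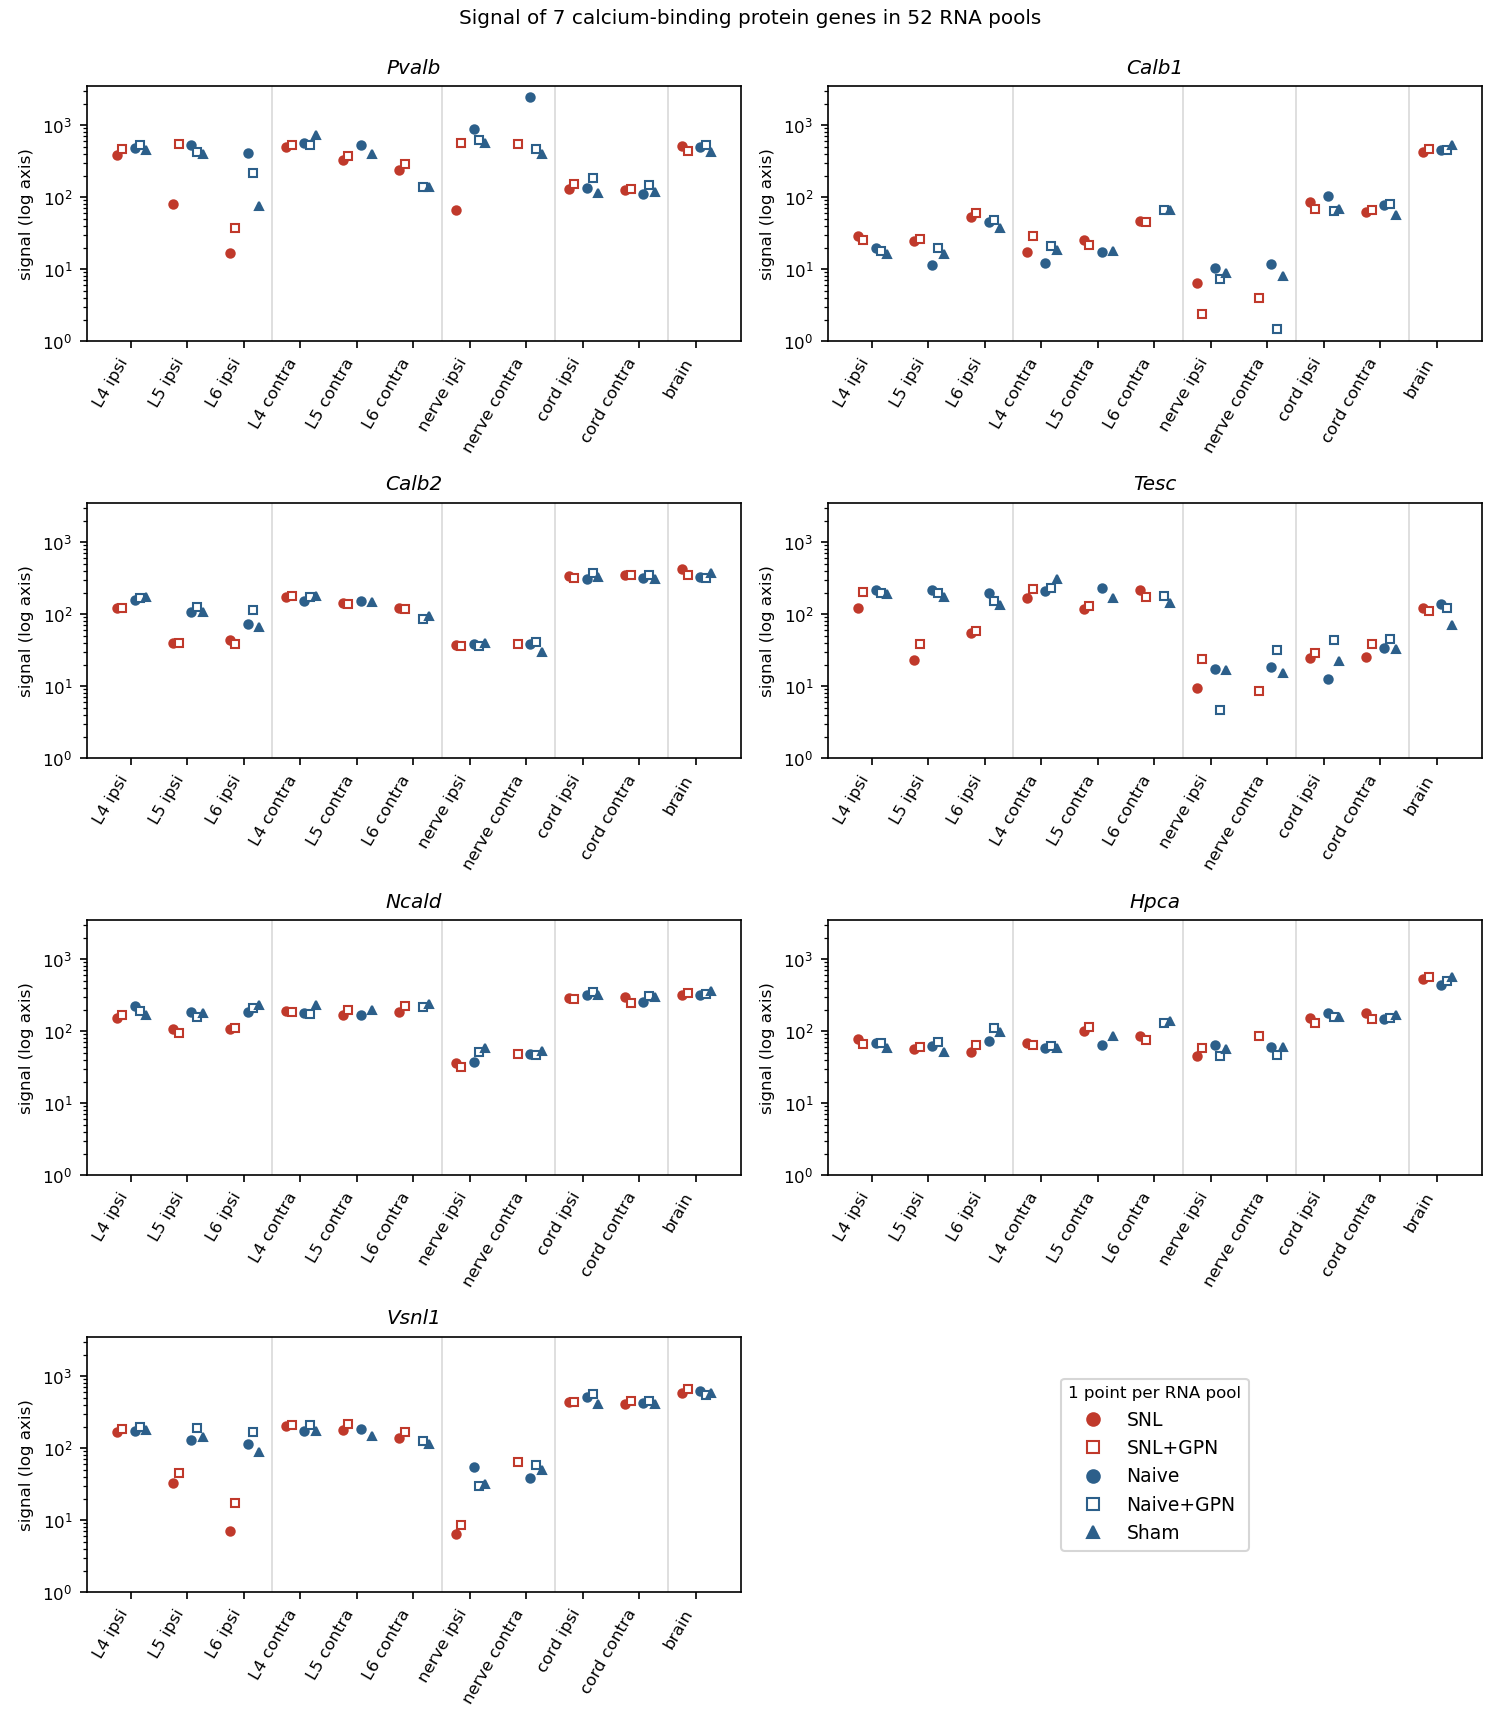
Signal of each gene (log axis, scale shared by all pools) in each of 52 RNA pools, by tissue and side. Red points are ligated pools and blue points unligated pools, with 1 point per pool. Tesc and Vsnl1 drop in the ligated L5 and L6 ipsilateral ganglia (Tesc 22.8 to 59.3, unligated 136 to 218). In cord and brain no gene passed the ligation test, and Tesc spread from 12.8 to 44.0 in unligated ipsilateral cord and from 70.1 to 139 in unligated brain.

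Among the buffers, calbindin had its highest level in brain, at 477 ± 47.5, followed by cord at 78.1 ± 21.5, ganglia at 25.8 ± 2.70 and nerve at 8.82 ± 1.55. No range of these 4 tissues overlapped another, and no nerve pool passed the 40th percentile. Brain exceeded cord by 2.55 on the log2 scale (SE 0.19, adjusted p = 4.22e-08), a 5.86-fold difference. Ganglia were 1.49 below cord (SE 0.16, adjusted p = 7.54e-07). The second calbindin probe set differed by -0.64 between ganglia and cord (SE 0.24, adjusted p = 0.0452). Between nerve and ganglia it differed by -0.56 and did not pass (SE 0.24, adjusted p = 0.0591). Calretinin stood at 338 ± 28.5 in brain and 335 ± 33.0 in cord, whose ranges overlapped (log2 difference 0.01, SE 0.16, adjusted p = 0.973). Its ganglia averaged 121 ± 12.9 and its nerve 38.2 ± 2.08, each range apart from the next.

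Parvalbumin had another order. Nerve came first at 698 ± 176, then brain at 486 ± 60.1, ganglia at 391 ± 80.1 and cord at 145 ± 36.9, with overlapping ranges for brain and ganglia. Ganglia exceeded cord by 1.26 on the log2 scale (SE 0.30, adjusted p = 0.00350), and nerve exceeded ganglia by 0.97 (SE 0.30, adjusted p = 0.0132). Brain exceeded cord by 1.73 (SE 0.37, adjusted p = 0.00306). Without the Naive+GPN pools the last 2 calls ended (adjusted p = 0.0712 and 0.0585), as they did with unscaled deposited values (adjusted p = 0.304 and 0.0637). The nerve also held skeletal muscle transcripts: Ckm, the muscle creatine kinase, read 1777 to 4630 there, against 24.2 to 1282 in ganglia and 27.1 to 61.2 in cord. Neuronal cell body transcripts were low in the nerve, where Nefl, the light neurofilament, read 74.8 to 100.2, against 4072 to 5296 in ganglia.

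Tescalcin was the other gene that was higher in ganglia than in cord, with 186 ± 23.4 in ganglia, 110 ± 35.5 in brain, 26.4 ± 15.98 in cord and 12.9 ± 7.12 in nerve. The ranges of cord and nerve overlapped, and no nerve pool passed the 40th percentile. Ganglia exceeded cord by 2.68 (SE 0.27, adjusted p = 4.13e-07), a 6.41-fold difference on the log2 scale with its pseudocount, and brain exceeded cord by 1.91 (SE 0.33, adjusted p = 0.000467).

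All 3 calcium sensors were lower in ganglia than in cord and lowest in nerve. Hippocalcin had 501 ± 62.5 in brain, 165 ± 12.5 in cord, 73.1 ± 8.33 in ganglia and 55.4 ± 9.56 in nerve. These ranges did not overlap with the 3 ganglia averaged. Single pools of the L4 (58.4 to 68.7) and L5 ganglia (51.5 to 70.8) did overlap the nerve pools (45.0 to 63.8). Brain exceeded cord by 1.56 (SE 0.17, adjusted p = 2.50e-06), and ganglia were 1.14 below cord (SE 0.14, adjusted p = 3.45e-06). The step between nerve and ganglia was small, at -0.35 (SE 0.14, adjusted p = 0.0431), and without the Naive+GPN pools it came to -0.14 (adjusted p = 0.553) and without the Sham pools to -0.42 (adjusted p = 0.0814). Neurocalcin delta read 334 ± 20.5 in brain and 330 ± 16.7 in cord, against 192 ± 5.99 in ganglia and 49.3 ± 10.4 in nerve. Visinin-like 1 read 585 ± 42.3 in brain and 494 ± 79.5 in cord, against 154 ± 26.3 in ganglia and 39.0 ± 14.0 in nerve. Brain and cord ranges overlapped for both, and neither passed the test between those tissues (adjusted p = 0.962 and 0.522). Neurocalcin delta was 0.77 lower in ganglia than in cord on the log2 scale (SE 0.12, adjusted p = 7.16e-05), a call that ended when each array was divided by its median (-0.27, adjusted p = 0.177).

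Along the lumbar ganglia of unligated rats, calretinin and parvalbumin had lower values at L6 than at L4, and calbindin and hippocalcin higher ones. No gene of the 7 passed the test of L6 minus L4 by limma with adjustment over all probe sets, where 0.00514% of probe sets were called, although 5 of 7 and 805 of all 19455 probe sets had an unadjusted p below 0.05. Calretinin read 72.4, 113 and 66.0 at L6, against 155, 168 and 172 at L4 (Naive, Naive+GPN and Sham, log2 difference -0.97, SE 0.16, adjusted p = 0.0702). Calbindin read 45.4, 48.0 and 37.4 at L6, against 19.9, 17.9 and 16.04 at L4 in the same order (1.05, SE 0.19, adjusted p = 0.132). The groups did not overlap for either gene. The second calbindin probe set differed by -0.07 (adjusted p = 0.99976), so the gene's 2 probe sets disagree here. Parvalbumin at L6 read 406, 218 and 76.4, against 479, 527 and 454 at L4 (-1.32, SE 0.37, adjusted p = 0.727). Hippocalcin differed by 0.46, visinin-like 1 by -0.60, tescalcin by -0.31 and neurocalcin delta by 0.12. On the contralateral side parvalbumin read 137 and 139 in the 2 unligated L6 pools, against 531 to 732 in the 3 L4 pools.

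**Figure D2:**
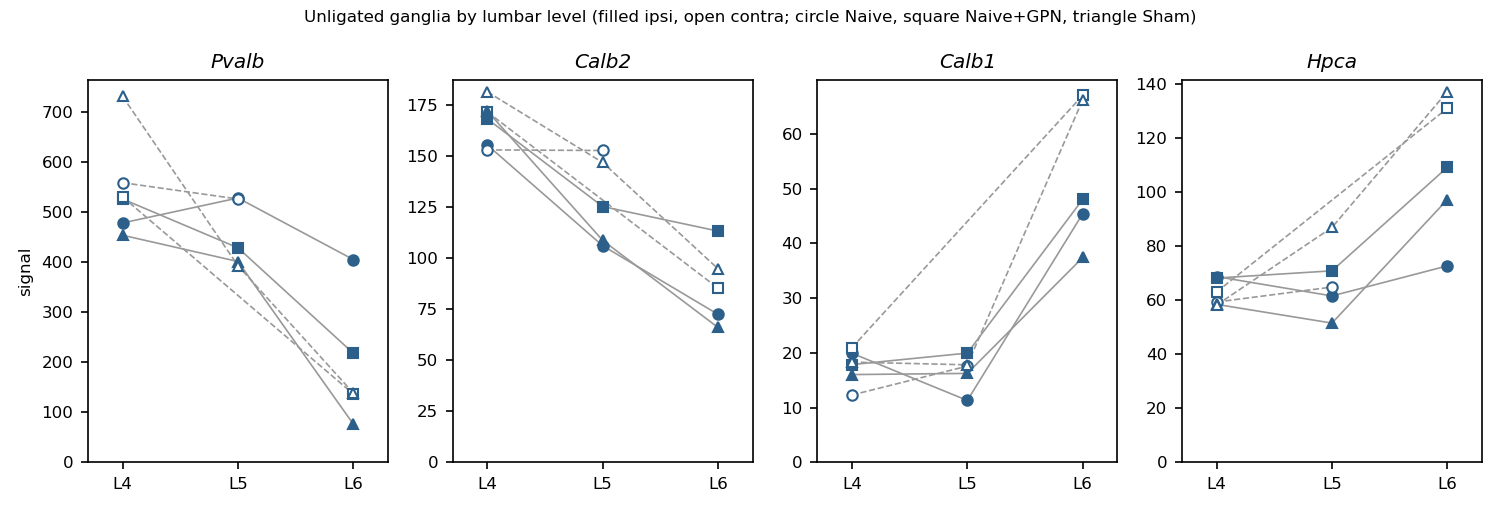
Signal (scale shared by all pools) of 4 genes in unligated ganglia at lumbar levels L4, L5 and L6, with 1 point per RNA pool and lines joining the ganglia of one treatment and side. Parvalbumin and calretinin points are lower at L6 than at L4, and calbindin points are higher (37.4 to 67.0 at L6, 12.3 to 20.95 at L4).

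Ligation was compared next, on a scale set within each tissue. In the L5 ganglion, whose nerve was tied, 4 of the 7 genes were lower in ligated pools and none was higher, against 8.88% of all probe sets that were lower and 6.75% that were higher. Tescalcin, visinin-like 1, calretinin and neurocalcin delta passed. The median log2 change of the 7 was -1.08, beside 0.00 over all 16746 probe sets tested. That median is the value of parvalbumin, which did not pass and varied widely between the ligated pools, as described below. In these pooled tissues, fewer cells of a type and less RNA per cell cannot be told apart.

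Tescalcin had the largest of these falls in L5. Its signal was 26.4 in SNL and 45.1 in SNL+GPN ganglia, against 259.6 in Naive, 233 in Naive+GPN and 209 in Sham ganglia. Both ligated pools lay far below all 3 unligated ones. The change was -2.56 on the log2 scale (SE 0.21, limma adjusted p = 0.00108), or 5.90-fold lower.

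Visinin-like 1 was measured by probe sets on 2 different arrays. On array C it read 37.6 in SNL and 52.7 in SNL+GPN ganglia of L5, against 156 in Naive, 226 in Naive+GPN and 173 in Sham ganglia, a change of -1.90 (SE 0.20, adjusted p = 0.00223). On array A it read 32.3 and 53.3 in the same ligated pools, against 103, 235 and 172 in the unligated pools, a change of -1.81 (SE 0.34, adjusted p = 0.0137). The groups did not overlap on either array.

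Calretinin, the buffer with a call in L5, read 45.9 in SNL and 47.4 in SNL+GPN ganglia, against 126 in Naive, 149 in Naive+GPN and 129.7 in Sham ganglia. The ligated pools were nearly equal and 2.68-fold lower (-1.42, SE 0.14, adjusted p = 0.00161). Neurocalcin delta read 126 in SNL and 114 in SNL+GPN ganglia, against 222 in Naive, 185 in Naive+GPN and 216 in Sham ganglia. It fell by 0.76 on the log2 scale (SE 0.13, adjusted p = 0.0116), without overlap, and leaving out the SNL or the SNL+GPN pool ended the call (adjusted p = 0.0540 and 0.0606).

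The remaining genes did not pass in L5. Hippocalcin read 67.5 in SNL and 71.9 in SNL+GPN ganglia, against 72.8 in Naive, 84.2 in Naive+GPN and 60.5 in Sham ganglia (-0.04, SE 0.17, adjusted p = 0.890). Calbindin read 29.1 in SNL and 30.3 in SNL+GPN ganglia, against 12.98 in Naive, 23.0 in Naive+GPN and 18.6 in Sham ganglia (0.59, SE 0.24, adjusted p = 0.148). Its ligated pools lay above the unligated ones, and its signal passed the 40th percentile in 5 of 9 unligated ganglion pools of this side. Its second probe set was not kept.

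**Figure D3:**
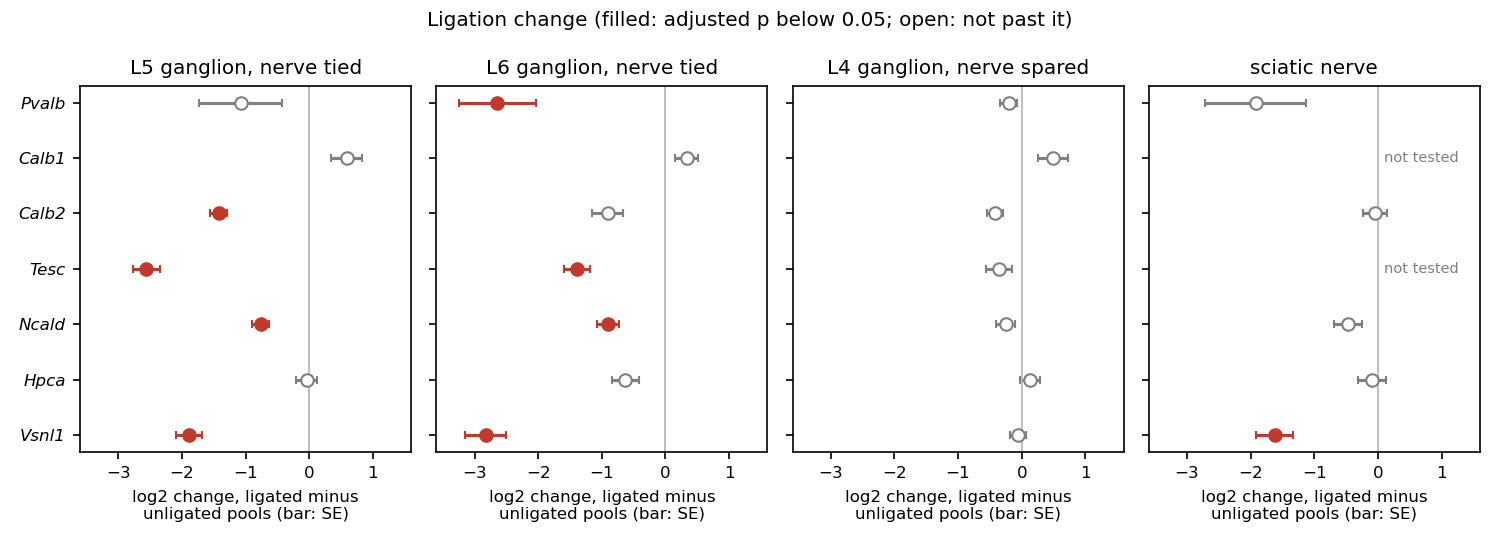
Log2 change of each gene between ligated and unligated pools (points) with its standard error (bars) in 4 ipsilateral tissues; filled red points passed an adjusted p of 0.05. Tesc, Ncald and Vsnl1 passed in both ganglia with a tied nerve and none of the 7 passed in the L4 ganglion.

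In the L6 ganglion, also with a tied nerve, 4 of 7 genes were lower and none higher, against 4.22% of all probe sets that were lower and 4.37% that were higher, and the median of the 7 was -0.91. Visinin-like 1, parvalbumin, tescalcin and neurocalcin delta passed. Visinin-like 1 read 6.10 in SNL and 15.2 in SNL+GPN ganglia, against 106 in Naive, 153 in Naive+GPN and 79.2 in Sham ganglia. Neither ligated pool passed the 40th percentile on either array, so both probe sets were kept through the unligated pools alone, where they are high. The changes of -2.83 on array C (SE 0.33, adjusted p = 0.00317) and -2.51 on array A (SE 0.18, adjusted p = 0.000474) are set against values at the low end of the array, and no fold is given. With no filter on low signal the array C change had an adjusted p of 0.0119. Tescalcin read 55.0 in SNL and 58.7 in SNL+GPN ganglia, against 196 in Naive, 151 in Naive+GPN and 135 in Sham ganglia (-1.39, SE 0.20, adjusted p = 0.00672). Both genes had separate groups. The tescalcin call ended without the SNL pool (adjusted p = 0.0676) and with unscaled deposited values (adjusted p = 0.387).

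Neurocalcin delta in L6 read 97.0 in SNL and 102 in SNL+GPN ganglia, against 169 in Naive, 197 in Naive+GPN and 212 in Sham ganglia, and fell by 0.90 (SE 0.17, adjusted p = 0.0184). Its groups were apart, and its call ended without the SNL, SNL+GPN or Naive+GPN pool (adjusted p = 0.142, 0.0856 and 0.0551) and with unscaled deposited values (adjusted p = 0.991). Calretinin read 43.2 in SNL and 37.8 in SNL+GPN ganglia, against 72.0 in Naive, 111 in Naive+GPN and 65.8 in Sham ganglia. The groups were apart here too, but the change of -0.91 missed the threshold (SE 0.24, adjusted p = 0.0614). Calretinin passed without the Sham pool (adjusted p = 0.0468) and with each array divided by its median (adjusted p = 0.0450). Hippocalcin read 50.6 in SNL and 63.3 in SNL+GPN ganglia, against 72.2 in Naive, 108 in Naive+GPN and 96.1 in Sham ganglia (-0.63, SE 0.22, adjusted p = 0.123). Calbindin was 0.33 higher (SE 0.19, adjusted p = 0.333).

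Markers of whole neurons moved in the same ganglia. The summed signal of 18 pan-neuronal genes was 23055 to 25695 in ligated L5 ganglia, against 34950 to 36504 in unligated ones, and 16617 to 19751 in ligated L6 ganglia, against 29328 to 30568 in unligated ones. Such sums weigh the brightest genes most. Of the genes tested, 10 of 17 fell and 1 rose in L5, and 9 of 18 fell and 1 rose in L6. The rise was that of Gap43 in both (1.20 and 1.16). Over all probe sets, 8.88% fell and 6.75% rose in L5, and 4.22% fell and 4.37% rose in L6. Genes of large sensory neurons and proprioceptors summed to 3959 to 4997 in ligated L5 ganglia, against 6959 to 7767 in unligated ones. Of 11 tested there, 8 fell and none rose, beside the 8.88% of all probe sets that fell. Kcns1, a potassium channel subunit, averaged 12.6 in ligated and 173 in unligated L5 ganglia (-3.27, SE 0.15, adjusted p = 0.000334). Macrophage markers summed to 4750 to 5146 in ligated L5 ganglia, against 1073 to 1708 in unligated ones. The 3′ to 5′ ratio of GAPDH, a sign of RNA integrity, was 1.01 to 1.05 in ligated L5 pools, against 1.13 to 1.26 in unligated pools, and 1.08 to 1.10 in ligated L6 pools, against 1.21 to 1.49 in unligated pools. The part of any of these in the falls was not tested.

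Parvalbumin varied more between pools than the other genes. In L5 it read 97.0 in the SNL ganglia but 648 in the SNL+GPN ganglia, against 636 in Naive, 517 in Naive+GPN and 483 in Sham ganglia. The ligated pools thus stood below and above all unligated pools, and the change of -1.08 did not pass (SE 0.65, adjusted p = 0.297). Leaving out the SNL+GPN pool gave -2.41 (adjusted p = 0.00553), and leaving out the SNL pool gave 0.26 (adjusted p = 0.470). The 19 muscle genes measured beside it summed to 3499.6 in the SNL and 10209.9 in the SNL+GPN pool, against 4928 in Naive, 1604 in Naive+GPN and 702 in Sham. With their mean as a covariate the parvalbumin change was -1.90 (adjusted p = 0.0867), while tescalcin changed by -2.84 (adjusted p = 0.00172).

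In L6 parvalbumin read 16.96 in SNL and 37.2 in SNL+GPN ganglia, against 408 in Naive, 215 in Naive+GPN and 75.7 in Sham ganglia. The groups did not overlap, though the unligated pools spread widely, and the change was -2.64 (SE 0.61, adjusted p = 0.0371). The muscle genes summed to 977 in SNL and 669 in SNL+GPN, against 6356 in Naive, 527 in Naive+GPN and 544 in Sham. With them as a covariate the change was -2.39 (adjusted p = 0.0455). The call ended without SNL, SNL+GPN, Naive or Naive+GPN (adjusted p = 0.250, 0.0890, 0.0735 and 0.0900), and also without the filter on low signal (adjusted p = 0.0856) or the mean-variance trend (adjusted p = 0.0593).

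In the ipsilateral sciatic nerve parvalbumin read 45.9 in SNL and 462 in SNL+GPN, against 799.9 in Naive, 522 in Naive+GPN and 470.2 in Sham. The SNL pool alone was far below the others. The 19 muscle genes summed to 950.4 in SNL and 8201 in SNL+GPN, against 19266 in Naive, 10172 in Naive+GPN and 8607 in Sham, with the pool lowest in muscle transcripts also lowest in parvalbumin. The change of -1.92 did not pass (SE 0.79, adjusted p = 0.240), and with the muscle covariate it was -0.05 (adjusted p = 0.985). Both ligated muscle sums lay below all unligated ones here, so that fit cannot tell muscle RNA from ligation. Over all probe sets it left 4 calls in this nerve, against 824 without the covariate. In the contralateral nerve, where SNL was not analysed here and no test was made, parvalbumin read 520.1 in SNL+GPN, against 2601 in Naive, 440.1 in Naive+GPN and 370.5 in Sham. The muscle sums there were 13032 in SNL+GPN, against 34455 in Naive, 8363 in Naive+GPN and 6937 in Sham.

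**Figure D4:**
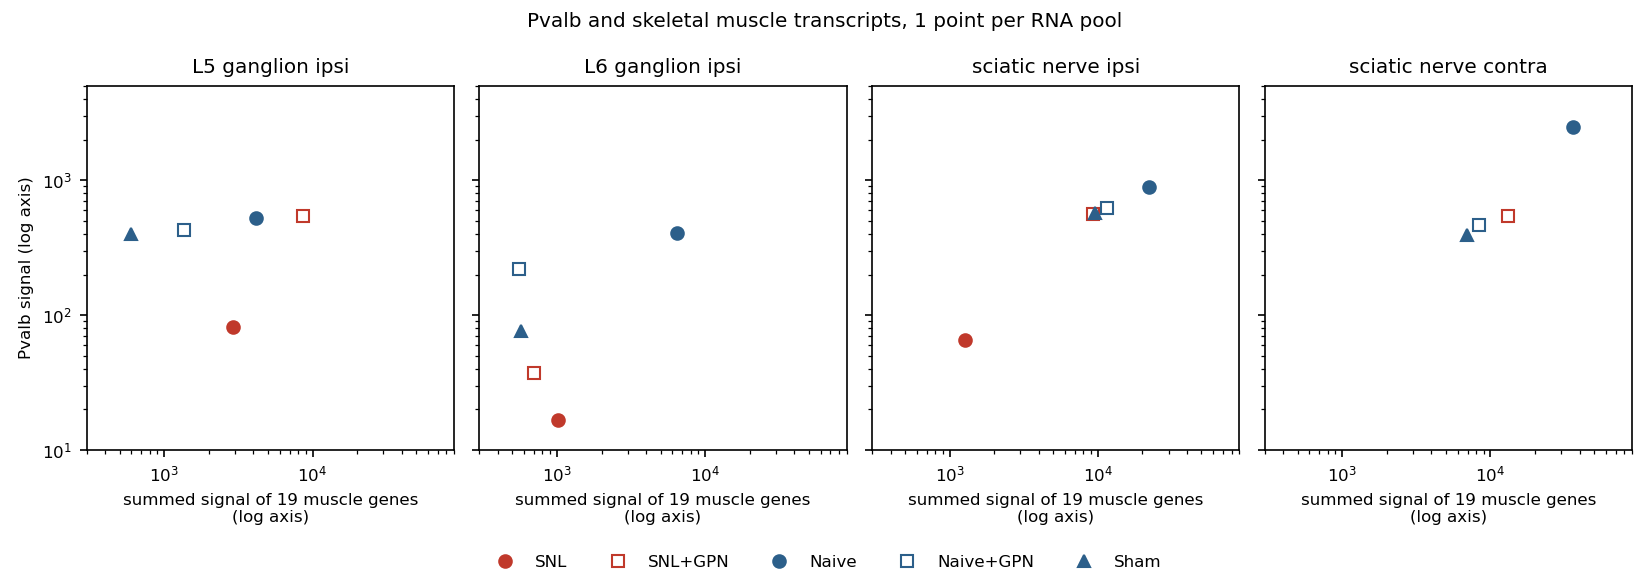
Parvalbumin signal against the summed signal of 19 skeletal muscle genes (both log axes, scale shared by all pools) in 4 tissues, 1 point per RNA pool, red for ligated and blue for unligated pools. In the nerve, parvalbumin is lowest in the SNL pool (65.8), which also has the lowest muscle sum (1274). It is highest in the Naive contralateral pool (2474), which has the highest sum (35811). In the L6 ganglion both ligated pools lie below the 3 unligated pools in parvalbumin. A cause was not tested.

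Of the 5 genes that could be tested in the ipsilateral nerve, visinin-like 1 was lower after ligation and none was higher, against 2.62% of all probe sets that were lower. Its array C signal was 4.72 in SNL and 6.20 in SNL+GPN, against 44.3 in Naive, 23.1 in Naive+GPN and 24.9 in Sham (-1.62, SE 0.29, adjusted p = 0.0245). The groups were apart, but both ligated pools lay at or below the pseudocount of 6.2 and under the 40th percentile. The probe set was therefore kept through the unligated pools alone. The array A probe set changed by -0.86 (adjusted p = 0.297), and the call ended with the muscle covariate (-1.29, adjusted p = 0.313), without the filter on low signal (adjusted p = 0.0586) or without the SNL, SNL+GPN or Naive pool (adjusted p = 0.220, 0.117 and 0.0556). The medians of the deposited C arrays were 20.2 to 35.4 in ligated nerves, against 16.4 to 19.9 in unligated nerves. The GAPDH 3′ to 5′ ratio was 1.61 to 1.92 in ligated nerves, against 1.603 to 7.38 in unligated nerves. The part of either in the result was not tested. Neurocalcin delta changed by -0.47, hippocalcin by -0.09 and calretinin by -0.04 (adjusted p = 0.299, 0.878 and 0.931). Calbindin and tescalcin were not kept in this tissue.

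In the L4 ganglion, whose nerve was spared, none of the 7 genes passed by limma, against 0.0418% of all probe sets. An unadjusted p below 0.05 was found for 1 of the 7 and for 2403 of 16762 probe sets. That gene was calretinin, at 127 in SNL and 127 in SNL+GPN ganglia, against 161 in Naive, 174 in Naive+GPN and 179 in Sham ganglia (-0.41, SE 0.13, adjusted p = 0.204). Visinin-like 1 read 193 in SNL and 206 in SNL+GPN ganglia, against 198 in Naive, 223 in Naive+GPN and 204 in Sham ganglia (-0.06, SE 0.12). The deposited C arrays that carry its probe set had medians of 51.8 to 53.3 in ligated L4 pools, against 18 to 25.7 in unligated pools, and without scaling the change was 0.66 (adjusted p = 0.168). Tescalcin read 125 in SNL and 209 in SNL+GPN, against 230.5 in Naive, 203 in Naive+GPN and 197 in Sham, and the ligated pools did not lie on one side of the unligated ones. The other changes in L4 were -0.20 for parvalbumin, -0.25 for neurocalcin delta, 0.13 for hippocalcin and 0.49 for calbindin (adjusted p from 0.400 to 0.761).

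Whether ligation acted differently in L5 and L4 was tested on the difference of paired tissues within each treatment. None of the 7 genes passed for L5 minus L4 by limma, and 0% of all probe sets passed. An unadjusted p below 0.05 was found for 3 of the 7 and for 3529 of 17770 probe sets. The estimates were -2.20 for tescalcin (SE 0.32, adjusted p = 0.101), -1.83 for visinin-like 1 (SE 0.47, adjusted p = 0.137) and -1.01 for calretinin (SE 0.32, adjusted p = 0.178). They were -0.87 for parvalbumin, -0.51 for neurocalcin delta, -0.17 for hippocalcin and 0.10 for calbindin. For L6 minus L4, again none of the 7 passed, and 0.0167% of all probe sets did. An unadjusted p below 0.05 was found for 4 of the 7 and for 2908 of 17992 probe sets. Visinin-like 1 differed there by -2.77 (SE 1.07, adjusted p = 0.282) and tescalcin by -1.03 (SE 0.28, adjusted p = 0.180). The differences were -2.44 for parvalbumin, -0.76 for hippocalcin, -0.65 for neurocalcin delta, -0.49 for calretinin and -0.16 for calbindin. The falls in the tied ganglia were therefore not shown to differ from the L4 changes by this test.

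On the contralateral side none of the 7 genes passed in any ganglion by limma, where 0%, 0.00612% and 0.0729% of all probe sets were called in L4, L5 and L6. An unadjusted p below 0.05 was found for 0, 1 and 3 of the 7, and for 672 of 16774, 1378 of 16351 and 1747 of 16450 probe sets. At L6, parvalbumin read 243 in SNL and 286 in SNL+GPN ganglia, against 141 in Naive+GPN and 142 in Sham ganglia (0.87, SE 0.17, adjusted p = 0.160). Its direction there was opposite to the ipsilateral one, with muscle sums of 701 and 793 in the ligated pools, against 561 and 544 in the unligated ones. Tescalcin at contralateral L5 read 158 in SNL and 172 in SNL+GPN ganglia, against 303 in Naive and 224 in Sham ganglia (-0.64, SE 0.18, adjusted p = 0.428). The groups did not overlap for either gene. Hippocalcin at contralateral L6 read 88.8 in SNL and 79.4 in SNL+GPN ganglia, against 134 in Naive+GPN and 141 in Sham ganglia (-0.68, SE 0.18, adjusted p = 0.242). Calbindin there changed by -0.48 (SE 0.19, adjusted p = 0.420), calretinin by 0.36, visinin-like 1 by 0.31, tescalcin by 0.28 and neurocalcin delta by -0.19. At contralateral L5 the other 6 genes lay between -0.33 for parvalbumin and 0.45 for hippocalcin. At contralateral L4 all 7 lay between -0.37 for tescalcin and 0.32 for calbindin. These values are those of the brighter probe sets. The second visinin-like 1 probe set rose more, by 0.84 at contralateral L4 (SE 0.49, adjusted p = 0.824) and 1.02 at contralateral L6 (SE 0.27, adjusted p = 0.247). Its ligated pools lay above the unligated ones in both. The second calbindin probe set changed by 0.38 at contralateral L4 (adjusted p = 0.853).

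In the spinal cord and brain none of the 7 genes passed, with 0% of all probe sets called in ipsilateral cord, contralateral cord and brain, and no member had an unadjusted p below 0.05. Visinin-like 1 in ipsilateral cord read 432 in SNL and 432 in SNL+GPN, against 516 in Naive, 548 in Naive+GPN and 403 in Sham (-0.17, SE 0.15). Calbindin in brain read 362 in SNL and 401 in SNL+GPN, against 386 in Naive, 394 in Naive+GPN and 457 in Sham (-0.11, SE 0.13). The ligated and unligated pools overlapped in both. The 7 changes ran from -0.22 for neurocalcin delta to 0.13 for tescalcin in ipsilateral cord, from -0.21 for tescalcin to 0.10 for calretinin in contralateral cord, and from -0.11 for calbindin to 0.19 for calretinin in brain. The remaining genes lay within these ranges. Over all probe sets, an unadjusted p below 0.05 was found for 454 of 16759 in ipsilateral cord, 834 of 16586 in contralateral cord and 433 of 16690 in brain.

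Gabapentin was tested on each treatment's mean over 8 tissues with ligation as a covariate. None of the 7 genes passed by limma, and 0% of all probe sets did. An unadjusted p below 0.05 was found for 1 of the 7 and for 513 of 20370 probe sets. That gene was parvalbumin, with a difference of 0.45 (SE 0.18, adjusted p = 0.999). Between single pools, which have no replicate check, the SNL+GPN pool exceeded the SNL pool 6.68-fold in L5 and 10.1-fold in the ipsilateral nerve, where its muscle sum was also higher, and 2.19-fold in L6, where its muscle sum was lower. The Naive+GPN pool stood at 0.81 times Naive in L5 and 0.65 times Naive in the nerve. Tescalcin differed by 0.21 (SE 0.11) and visinin-like 1 by 0.20 (SE 0.09). Calbindin, calretinin, hippocalcin and neurocalcin delta lay between -0.02 and 0.05.

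Other genes of calcium binding and handling were counted in the tied ganglia for comparison. Of 24 neuronal calcium sensor and related EF-hand genes, 14 were measured and 11 tested in L5, where 6 fell and 1 rose, with a median of -0.70. Over all probe sets in L5, 8.88% fell and 6.75% rose, which also stands beside the counts of the next lists. Kcnip3, a calcium sensor of potassium channels, averaged 1.95 in ligated and 22.5 in unligated L5 ganglia (-2.05, SE 0.35, adjusted p = 0.00999). Its ligated mean lay below the pseudocounts of all 3 arrays (4.5 to 6.2), so its probe set was kept through the unligated pools, where it is high. This change is set against values at the low end of the array, and the count of 6 includes it. Cabp1, a calmodulin-like protein, changed by -1.27 (SE 0.19, adjusted p = 0.00629), and Necab3 by -1.20 (SE 0.15, adjusted p = 0.00340). The rise was that of Efhd2 (0.57, SE 0.12, adjusted p = 0.0185), a call that ended without SNL, SNL+GPN, Naive+GPN or Sham (adjusted p = 0.0541 to 0.0891). In L6, where 4.22% of all probe sets fell and 4.37% rose, 4 of 11 fell and none rose, with a median of -0.56, among them Kcnip2 (-1.24, SE 0.16) and Necab3 (-1.18, SE 0.18).

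The S100 family holds EF-hand proteins found in many glia and immune cells. In L5, 2 of 10 tested genes rose and 1 fell, with a median of 0.22. S100a4 averaged 1019.9 in ligated and 501 in unligated L5 ganglia (1.02, SE 0.17, adjusted p = 0.0102), and S100a11 averaged 904 and 489 in these groups (0.88, SE 0.13, adjusted p = 0.00585). S100a13 fell by 0.75 (SE 0.17, adjusted p = 0.0283), and that call was kept without SNL+GPN but ended without any other pool (adjusted p = 0.0597 to 0.160). The same counts, 2 up and 1 down of 10, were found in L6, with the same 3 genes and with macrophage markers at 4244 to 5605 in ligated ganglia, against 844 to 1298 in unligated ones. Macrophage RNA and S100 signal were not separated by any test.

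Among 15 tested genes of calmodulin and its targets in L5, 2 rose and 2 fell, with a median of -0.26, and these counts are near the shares over all probe sets. Gap43, a calmodulin-binding growth cone protein, rose by 1.20 (SE 0.17, adjusted p = 0.00536) and Camk2d by 0.96 (SE 0.14, adjusted p = 0.00586). Rcan2, a regulator of calcineurin, fell by 1.25 (SE 0.12, adjusted p = 0.00161) and Camk2g by 1.03 (SE 0.14, adjusted p = 0.00499). In L6, 1 of 20 rose and 2 fell, with Rcan2 at -1.62 (SE 0.23, adjusted p = 0.00660). Of 20 tested pumps, exchangers and store proteins in L5, 1 rose and 4 fell, with a median of -0.02, close to the median over all probe sets. The plasma membrane calcium pump Atp2b3 averaged 23.0 in ligated and 100.7 in unligated L5 ganglia (-1.89, SE 0.14, adjusted p = 0.00101), and 23.8 and 83.9 in L6 (-1.60, SE 0.18, adjusted p = 0.00281). Atp2b2, another pump of this family, changed by -0.89 in L5 (SE 0.18) and -1.004 in L6 (SE 0.17). In the L4 ganglion no tested gene of these 4 lists passed.

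Across all 52 pools the 7 genes did not follow a single pattern. Calretinin and visinin-like 1 were most alike (Pearson r = 0.94 of log2 values), followed by calbindin and hippocalcin (r = 0.91) and calretinin and neurocalcin delta (r = 0.89). Parvalbumin had r between -0.26 and 0.21 with each of the others, and tescalcin had r of 0.48 with neurocalcin delta. The pools share tissues, so these values mostly order the tissues and are given as a description. The probe sets of visinin-like 1 correlated at 0.96 and those of calbindin at 0.90.

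Over 5483 or 5484 other genes above the median level, the gene most like each was found by the same measure over the 52 pools. For parvalbumin it was Tmem38a (r = 0.75), an intracellular cation channel abundant in muscle, then Slc37a4 (0.66) and Trak1 (0.63). For tescalcin it was Dpysl4 (0.94), Rgs4 (0.92) and Pitpnm2 (0.91). Calbindin lay closest to Cnih2 (0.94), Ngef (0.93) and Celf4 (0.92), and hippocalcin to Cx3cl1 (0.95), Ppp1r9b (0.95) and Cnih2 (0.93). Calretinin lay closest to Bcan (0.97), Faim2 (0.95) and Fndc5 (0.95), neurocalcin delta to Atp2b2 (0.97), Bex3 (0.97) and Nalf1 (0.96), and visinin-like 1 to Faim2 (0.96), Calb2 (0.94) and Bcan (0.93).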

How the data were processed

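The deposited values are linear probe set intensity, made with MAS5 per the submitters' processing notes. The MAS5 release and array scaling: not given in the sources used here. No detection calls were used. Probe sets were named through GEO's platform annotation, updated by Entrez identifier with RefSeq gene names. Arrays of each set were quantile normalized within a tissue for ligation and over all 52 pools for levels and tissue tests. Values were taken as log2(signal + pseudocount), with the 20th percentile of the set as pseudocount (5.8 for A, 4.5 for B and 6.2 for C), so folds of weak genes are understated. A probe set was kept if 2 or more pools of a comparison had signal above the 40th percentile on the array concerned. Tests used limma 3.58.1 in R 4.3.3 (lmFit, eBayes with trend, two-sided), adjusted by Benjamini-Hochberg over all kept probe sets, with a threshold of 0.05, and were tested on simulated data. The number of arrays limits the precision. Deposited array medians ranged from 13 to 62.2 on A, 8.1 to 47.2 on B and 14.5 to 53.3 on C.

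The 7 genes and the 11 gene lists were chosen with earlier results of these data known. The 7 genes are reported in every comparison, some as a range. Of each other list described, the rule was up to 3 largest rises and up to 3 largest falls past the threshold, and for each of the 7 genes the 3 highest correlations. A gene with several probe sets is represented by the brightest on average. Naive L6 contralateral, Naive+GPN L5 contralateral and SNL contralateral nerve pools were not analysed here. Promoters of Calb1, Calb2 and Ncald were not used here.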

Additional observations from a re-analysis of the deposited data

How the results depend on the processing

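Recomputed results were changes of single genes and counts of the 7 genes called. Of these, 563 were kept, 32 lost the call, 11 gained one, 19 moved otherwise and 0 reversed a called value. For a gene, kept means the same direction and side of the threshold. For a count, it means an equal count or a nonzero one of similar size, whichever genes were called. No paired analysis was possible between ligated and unligated pools, because the labels link no pool of one treatment to a pool of another. Between tissues, pools of one treatment are paired: the L5 minus L4 and L6 minus L4 differences use this, and with treatment as a block 7 genes were called between ganglia and cord, 6 between nerve and ganglia and 4 between brain and cord. With the deposited values unscaled, the number of the 7 genes called was 2 in the L6 ganglion, 2 in the contralateral L6 ganglion and 3 for L5 minus L4. In the ipsilateral nerve the number was 0 without the filter on low signal, 0 with the muscle covariate and 3 with 1 spread over all tissues. The last setting gave 6 genes in the L6 ganglion, where calretinin (adjusted p = 9.52e-06) and hippocalcin (adjusted p = 0.00536) then passed, and dividing arrays by their medians gave 5. Over all probe sets, unscaled values gave 2926 calls in L4, 86 in L6, 1227 in contralateral L6 and 4745 for L5 minus L4, against 7, 1451, 12 and 0 as reported. One common spread gave 2798 in L6 and 2348 in the nerve, where the muscle covariate left 4, against 824 as reported. Without the mean-variance trend 1 gene was called for L6 minus L4. For L6 minus L4 of unligated ganglia, 1 gene, calretinin, passed with the pseudocount doubled (adjusted p = 0.0477) or with treatment as a block (adjusted p = 0.0494). Leaving out each treatment in turn gave 3 to 4 genes called in L5, 1 to 5 in L6, 0 to 1 in the nerve, 3 to 4 between brain and cord and 5 to 7 between nerve and ganglia. The same step gave 768 to 1899 probe sets called in L5, 266 to 1426 in L6 and 0 to 1006 in the nerve. The cause was not tested, beyond the smaller number of pools. Named genes of all lists kept their call in 391 of 429 alternatives in L5 and in 279 of 377 in L6, where the calls of Cabp1, S100a13 and Ppp3ca were lost in 9 alternatives each. In L5 the call of Efhd2 was lost in 8. Parvalbumin in the nerve passed with unscaled values (-1.86, adjusted p = 0.00695), with 1 spread over all tissues (adjusted p = 0.0405) and without SNL+GPN (-3.51, adjusted p = 0.0246).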
